A study of Danio rerio with 11 samples.

Results

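Offspring of zebrafish exposed to dibutyl phthalate (DBP) were compared here with offspring of unexposed fish, across all genes of the deposited expression tables. The members were 5 libraries of the 11 in the series: the 3 libraries titled DBPG-1 to DBPG-3 and the 2 control libraries titled KB1 and KB2. They were chosen by title alone, and no measured value entered that choice. Every library came from whole wild-type larvae of the AB strain at 120 h after fertilization. The parents of the DBP group had been kept with DBP for 30 days, and the control label gives no agent. DBP is a plasticizer ester of phthalic acid with straight butyl chains, and its isomer diisobutyl phthalate (DiBP) has branched ones. The other 6 libraries, 3 after parental DiBP and 3 after both phthalates together (the combined group), entered the fit to estimate the spread and were compared with DBP where that bears on a result. The sources used here do not state the doses. The series describes triplicates, and no control beyond these 2 was analysed here. The labels do not tell whether the larvae of a group came from several spawnings, so every p-value rests on the spread among these libraries, part of which may be technical.

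Whole larvae mix all tissues. A gene's share of the fragments can therefore change because a tissue grows, because its cells make more of the RNA, or because other RNAs become scarcer, and in these bulk samples fewer cells of a type and less RNA per cell cannot be told apart. At this age the larva is finishing its yolk, its gut and liver are starting to work, and its brain and retina are still adding neurons. Dividing and growing cells depend on the nucleolus, where RNA polymerase I makes ribosomal RNA and several large protein complexes trim it and assemble it into ribosomal subunits. Notch, Wnt and Hedgehog signals decide which precursors go on dividing and which become neurons or other cells.

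The libraries held 13396589 to 15061899 recovered reads. The 23 tissue marker symbols looked up matched 18 genes, several of them under the symbol rho. All 18 were above 1 FPKM (fragments per kilobase of gene length and per unit of depth) in all 11 libraries. Neither muscle marker, mylpfa or tnnt3b, was matched, and of the neuron markers only elavl3 was. The control libraries stood apart from each other. They differed 2-fold or more in 2338 of 19465 tested genes, where pairs of DBP libraries differed in 544, 559 and 564. The spread behind the p-values is pooled over all groups and may be too small for the controls. The adjusted p-values, also those against single controls, may then be too small. Summed FPKM of the muscle list were 14806 in control library 1 and 50663 in control library 2, against 57963 to 65691 with DBP. The lens list stood at 19555 and 2995, against 2133 to 2305. The intestine list gave 680 and 1778, against 2537 to 2721, and the exocrine pancreas list gave 563 and 1456, against 1760 to 2325. In each of these lists control library 2 lay closer to the DBP libraries than control library 1 did, so every result below is read against each control library alone. Genes of the tissue lists were left out of the 14 largest rises and 14 largest falls named below, but not of the other named genes. The part of tissue makeup in the results below was not tested.

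With both controls, 2683 genes passed an adjusted p of 0.05 (limma with Benjamini-Hochberg adjustment over all tested genes, as for every adjusted p below), which is 13.8% of those tested. Of these, 1748 were higher with DBP (8.98% of tested genes) and 935 were lower (4.8%). When the fit was repeated with one control library at a time, 5748 genes (29.7%) passed against control library 1 and 1805 (9.31%) against control library 2. Both single-control fits and the fit with both controls, in the same direction, were passed by 1138 genes (5.85%), of which 808 were higher (4.15%) and 330 lower (1.7%). These are called below the differences that held against each control. They made up 42.4% of the calls, or 46.2% of the higher and 35.3% of the lower ones. Of the remaining calls, 1219 held against control library 1 only, 190 against control library 2 only and 136 against neither. Among the calls in tissue lists 94 of 166 held (56.6%), and outside those lists 1044 of 2517 held (41.5%).

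Another scaling moved the balance of higher and lower genes, and the counts depended on single libraries. With the values as deposited, without a correction for composition, 1340 genes were higher and 1645 lower (44.9% higher, against 65.2%), and 585 and 488 held against each control (54.5% higher, against 71.0%). The number of calls fell to 1500, 1360 and 1409 without DBP library 1, 2 or 3, and the number that held against each control fell to 725 without DBP library 2. Leaving combined library 3, which belongs to neither group, out of the estimate of spread raised the latter to 2223. With the replicate number as a block it was 678.

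**Figure D1:**
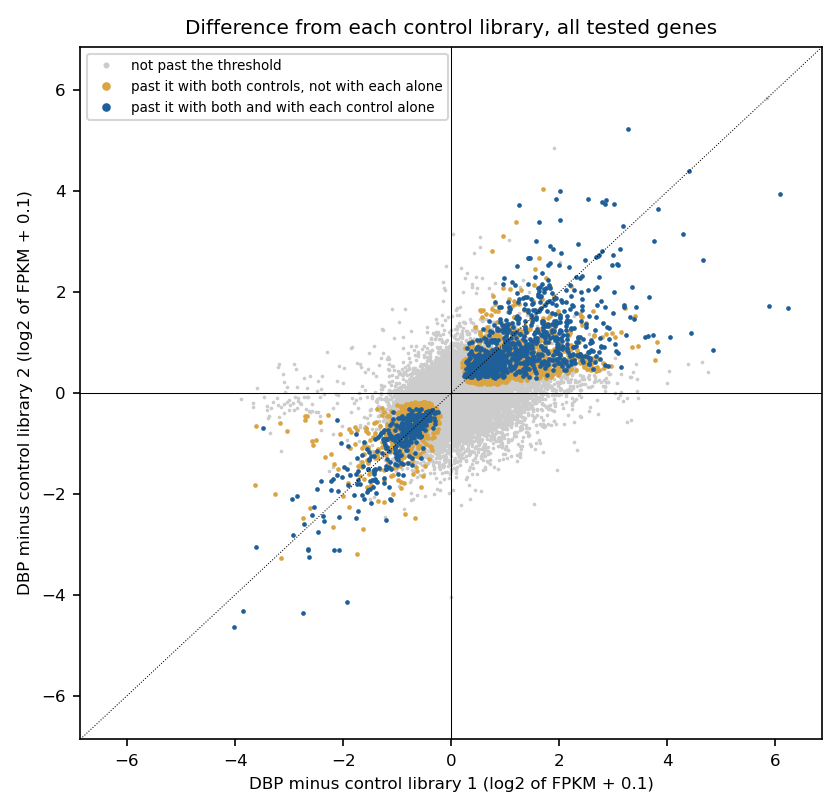
Difference between the DBP group and control library 1 alone (horizontal axis) and control library 2 alone (vertical axis), on the log2 scale of FPKM + 0.1, with 1 point per tested gene. The 1138 differences that held against each control (blue) fill the upper right and lower left corners, the other calls (orange) lie mostly where 1 of the differences is small, and 34.7% of the tested genes have opposite signs against the single controls.

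Outside the tissue lists, 799 genes with a usable symbol, 20 or more reads on average and no overlap between groups held against each control, 564 higher and 235 lower. The 14 largest rises and 14 largest falls among them, ranked by the smaller of the differences from single controls, are described next. Their values chose them, so the differences describe these genes and do not support one another. Each difference is DBP minus control in log2(FPKM + 0.1), given with its standard error. Because of the added 0.1, genes with low FPKM changed by more than it shows.

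The largest rise was that of zmp:0000000737 (ENSDARG00000105731), a gene known here only by this name. It stood at 0.0161 and 0.0314 FPKM in control libraries 1 and 2 (1 and 2 reads) and at 1.44, 1.61 and 1.38 FPKM in the DBP libraries (91, 95 and 78 reads). The DiBP and combined libraries held 0 to 0.05 FPKM, and the DBP libraries lay above all others. The gene passed the read filter only through the DBP libraries and so had to differ, and no p-value is given for it.

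Of the other rises, 4 differed from both DiBP and the combined group as well. ATF2 (ENSDARG00000023903), a transcription factor activated by stress kinases, stood at 0.286 and 0.359 FPKM in the controls and at 1.69, 1.59 and 1.03 with DBP (1.93 ± 0.27, adjusted p = 0.00205), while the other 6 libraries held 0.246 to 0.417. PDXK (ENSDARG00000088959), the kinase that makes active vitamin B6, went from 1.197 and 1.27 FPKM to 4.49, 4.34 and 4.18 (1.83 ± 0.33, adjusted p = 0.00575). The alkaline phosphatase gene alp3 (ENSDARG00000098063) went from 0.593 and 0.62 FPKM to 2.16, 3.52 and 3.12 (2.17 ± 0.26, adjusted p = 7.45e-04). For these 3 genes the DBP libraries lay above all 8 others. The serine protease gene ovch1 (ENSDARG00000016538) had 0.828 and 0.37 FPKM in the controls and 3.30, 3.11 and 2.93 with DBP (2.37 ± 0.28, adjusted p = 6.83e-04), with DiBP in between at 1.25 to 1.75 and the combined group at 0.273 to 0.362.

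The remaining 9 rises did not pass the test against DiBP, against the combined group or against either. The family members ponzr3 (ENSDARG00000088589) and ponzr4 (ENSDARG00000087440) rose by 2.76 ± 0.34 (adjusted p = 8.05e-04) and 2.87 ± 0.47 and did not pass the test against either other exposure. The controls held 3 and 4 reads of ponzr4. In the case of ponzr3 the controls held 0.707 and 0.997 FPKM, the DBP libraries 5.52 to 6.48, the DiBP libraries 7.14 to 8.63 and the combined libraries 1.78 to 5.37. MSH4 (ENSDARG00000075826), which acts in meiotic crossing over, went from 0.573 and 0.339 FPKM to 3.03 to 3.21 (2.66 ± 0.23, adjusted p = 2.03e-04). The most abundant of the 14 was ENTREP1 (ENSDARG00000099946), for a protein of endosome membranes. It stood at 10.27 and 4.79 FPKM in the controls, at 35.0, 34.8 and 33.2 with DBP, at 24.3 to 25.1 with DiBP and at 3.36 to 3.81 in the combined group (2.37 ± 0.23, adjusted p = 3.02e-04). The cytochrome P450 genes cyp2p7 (ENSDARG00000042980, 1.97 ± 0.30) and cyp2p8 (ENSDARG00000042982, 2.29 ± 0.28) rose from 2.27 to 2.88 and 0.328 to 0.498 FPKM, to 9.29 to 9.96 and 1.95 to 2.72. Members of such families are similar in sequence, so their separate values are uncertain. The other 3 were afp4 (ENSDARG00000095863, 2.52 ± 0.26), a gene related to fish antifreeze proteins, IQCH (ENSDARG00000015476, 1.88 ± 0.28) and the deaminase family gene APOBEC2 (ENSDARG00000018881, 1.79 ± 0.26).

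**Figure D2:**
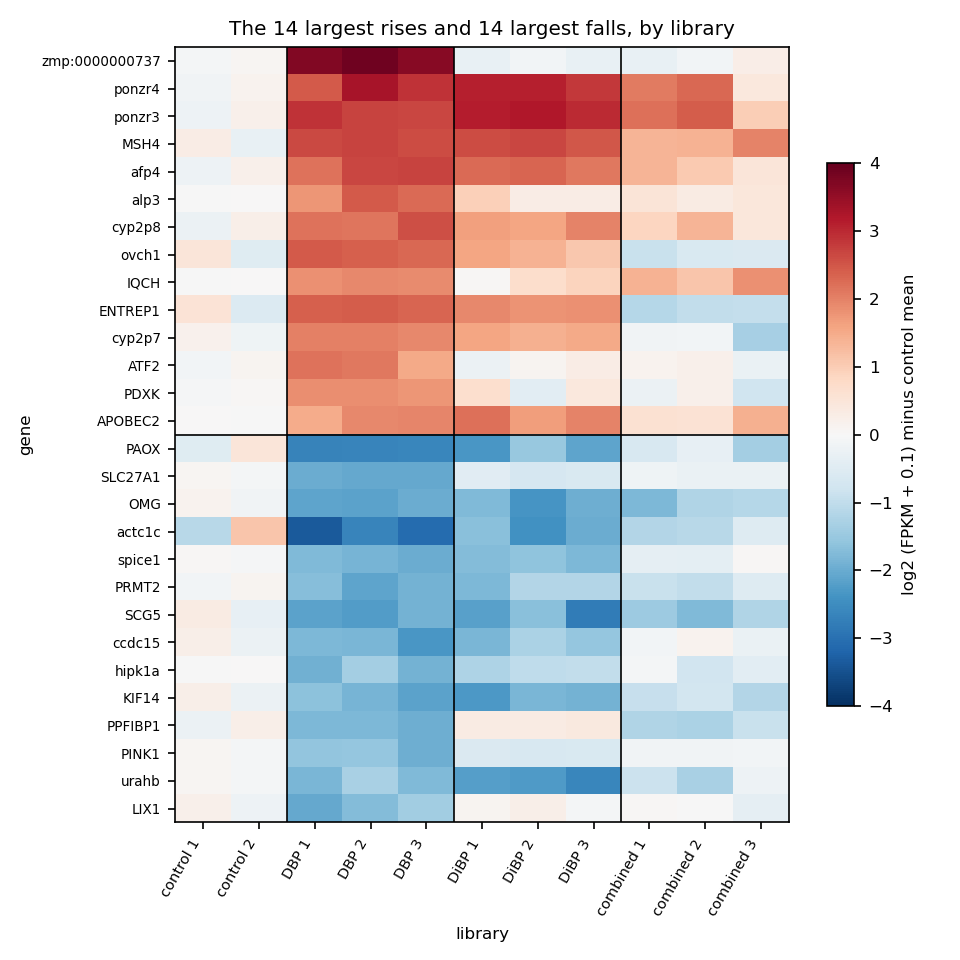
Level of the 14 largest rises and 14 largest falls (rows) in each of the 11 libraries (columns), as log2 of FPKM + 0.1 after scaling, minus the mean of the 2 control libraries. Red is higher and blue lower than that mean, and the rows zmp:0000000737, ATF2 and PDXK are at their reddest in the DBP columns, while ponzr3 and MSH4 are about as red in the DiBP columns.

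Among the 14 largest falls, 4 also differed the same way from DiBP and from the combined group. SLC27A1 (ENSDARG00000104949), which brings long-chain fatty acids into cells, stood at 3.78 and 3.37 FPKM in the controls, at 0.789, 0.73 and 0.739 with DBP, at 2.18 to 2.43 with DiBP and at 2.92 to 3.33 in the combined group (-2.02 ± 0.14, adjusted p = 6.88e-05). PINK1 (ENSDARG00000001929), the kinase that marks damaged mitochondria for removal, went from 8.65 and 7.75 FPKM to 2.55, 2.53 and 1.92 (-1.69 ± 0.14, adjusted p = 1.26e-04), with 5.12 to 7.96 in the other exposed groups. PPFIBP1 (ENSDARG00000100057), a liprin of cell adhesion sites, held 22.9 and 32.1 FPKM in the controls and 7.24, 7.10 and 6.47 with DBP (-1.86 ± 0.15, adjusted p = 1.21e-04). DiBP libraries held 31.9 to 34.6 for it and combined libraries 12.1 to 14.4. LIX1 (ENSDARG00000052154) went from 8.99 and 6.70 FPKM to 1.70, 2.099 and 2.71 (-1.72 ± 0.21, adjusted p = 7.60e-04), and all 6 other exposed libraries held 5.96 to 9.11.

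Another 3 of the falls belong to the machinery of cell division. spice1 (ENSDARG00000004647), for a protein of spindles and centrioles, went from 9.80 and 9.12 FPKM to 2.57, 2.34 and 2.18 (-1.86 ± 0.15, adjusted p = 1.36e-04). DiBP libraries held 2.55 to 3.05 FPKM for it and combined libraries 7.74 to 9.79. The centriolar gene ccdc15 (ENSDARG00000067517, -1.98 ± 0.26) and KIF14 (ENSDARG00000062187, -1.87 ± 0.26), a kinesin of cytokinesis, fell as well. Genes of nerve and hormone cells among the falls were OMG (ENSDARG00000086573, -2.07 ± 0.24), a myelin glycoprotein, and SCG5 (ENSDARG00000077045, -2.08 ± 0.32), a chaperone of the enzyme that cuts prohormones. SCG5 went from 5.56 and 3.47 FPKM to 0.862, 0.79 and 1.055, and OMG from 4.79 and 3.90 to 0.862, 0.838 and 0.964. Neither passed the test against DiBP.

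The polyamine oxidase gene PAOX (ENSDARG00000003380) went from 0.649 and 1.34 FPKM to about 0.06 in each DBP library, which is 3 reads each (-2.64 ± 0.38, adjusted p = 0.00212). The actin gene actc1c (ENSDARG00000076126) fell from 2.72 and 13.1 FPKM to 0.469, 0.802 and 0.576 (-3.03 ± 0.52). Its controls differed more, on the log2 scale, than those of any other of the 14 largest falls. It is similar to other actin genes of muscle, and its value is uncertain for that reason. The others were the arginine methyltransferase gene PRMT2 (ENSDARG00000063212, -1.91 ± 0.22), the kinase gene hipk1a (ENSDARG00000063594, -1.72 ± 0.26) and urahb (ENSDARG00000089331, -1.63 ± 0.28) of uric acid breakdown.

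Ribosome assembly genes of the nucleolus were higher with DBP. Of 92 tested genes in this list 53 rose and 0 fell, and 33 rises held against each control (35.9% of the list, where 4.15% of all tested genes did so). The median difference was 0.48 with both controls, 0.54 against control library 1 and 0.38 against control library 2, while the median of all tested genes was -0.01. In 73 of the 92 genes all DBP libraries lay above both controls (22.5% of all tested genes did), and in none did they lie below. With values as deposited 43 rose and 0 fell, and 21 rises held against each control.

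The rises that held included genes of ribosomal RNA synthesis, of its modification and of both subunits. The RNA polymerase I subunit gene POLR1A (ENSDARG00000098375) stood at 3.77 and 3.73 FPKM in the controls and at 5.05, 5.23 and 5.55 with DBP (0.58 ± 0.11, adjusted p = 0.00768), and POLR1B (ENSDARG00000077469) rose by 0.66 ± 0.13. Among genes for the small RNA-guided enzymes that modify ribosomal RNA, DKC1 (ENSDARG00000016484), a pseudouridine synthase, went from 9.39 and 9.31 FPKM to 11.9, 12.4 and 12.2 (0.48 ± 0.08, adjusted p = 0.00565), and its partner NOP10 (ENSDARG00000104227) rose by 0.41 ± 0.09. For the small subunit, UTP4, UTP6, PWP2, TBL3, MPHOSPH10, tsr1, tsr2 and the acetyltransferase NAT10 rose against each control, and tsr2 (ENSDARG00000005772) went from 24.8 and 31.3 FPKM to 41.3, 44.1 and 43.8 (0.72 ± 0.10, adjusted p = 0.00179). For the large subunit, PPAN (ENSDARG00000022232) went from 10.6 and 10.7 FPKM to 15.9, 18.0 and 18.7 (0.81 ± 0.10, adjusted p = 7.45e-04). NOC3L (ENSDARG00000002487) went from 6.86 and 7.23 to 11.5, 10.9 and 11.2 (0.76 ± 0.10, adjusted p = 0.00147), and NOC2L (ENSDARG00000001754) from 5.44 and 8.14 to 13.1, 12.99 and 12.7 (1.04 ± 0.14, adjusted p = 0.00153). In the first pair the control libraries differed by little, and for NOC2L control library 1 was the lower one. The nucleolar chaperone gene npm1a (ENSDARG00000014329) rose from 23.5 and 34.2 FPKM to 46.2, 46.8 and 47.6 (0.82 ± 0.13, adjusted p = 0.00329), and RRP12 (ENSDARG00000022410) had the largest difference of the list, 1.18 ± 0.23, with 1.72 against control library 1 and 0.63 against control library 2.

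Not every member moved. The gene ubtf (ENSDARG00000035066), for a factor that opens ribosomal DNA for transcription, had 33.1 and 27.5 FPKM in the controls and 27.4, 25.6 and 25.4 with DBP (-0.11 ± 0.10, adjusted p = 0.488). UTP20 (-0.14 ± 0.18) and IMP3 (-0.35 ± 0.38) did not pass either.

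**Figure D3:**
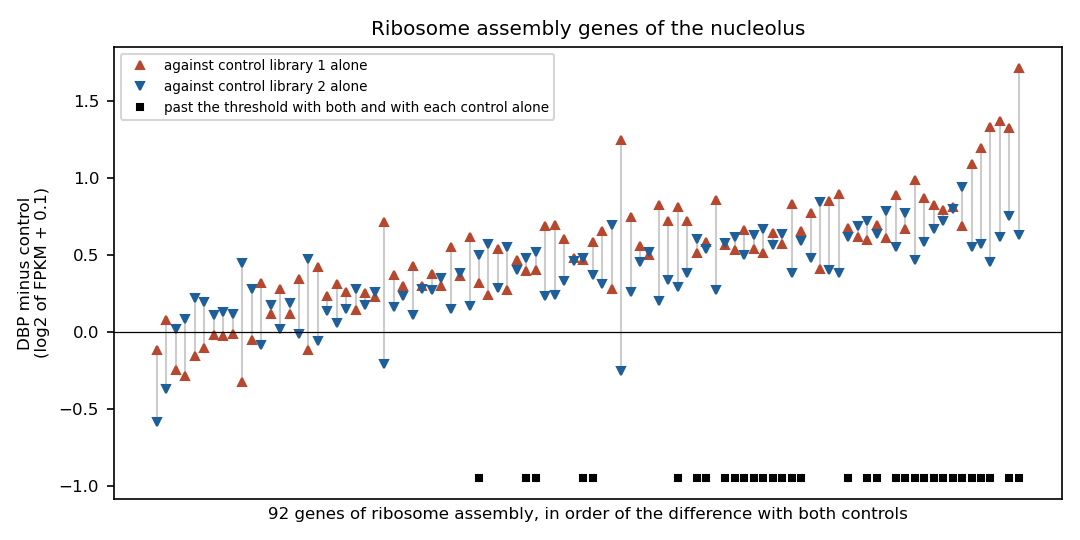
Difference between DBP and control library 1 alone (red, upward triangles) and control library 2 alone (blue, downward triangles) for the 92 ribosome assembly genes, on the log2 scale of FPKM + 0.1, ordered by the difference with both controls. Black squares mark the 33 genes that held against each control, and right of the middle all points lie above 0 but that of MRTO4 against control library 2.

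DBP offspring stood between the other exposures for these genes. The median member was 0.31 lower with DBP than with DiBP, with 28 members below and 2 above at an adjusted p under 0.05, and 0.49 higher than in the combined group, with 64 above and 0 below. Over all tested genes 11.4% passed against DiBP and 19.0% against the combined group. These contrasts use the same DBP libraries as the contrast with the controls. By library, the median member lay 0.41, 0.52 and 0.44 above the control mean with DBP, 0.73 to 0.85 above it with DiBP and 0.01 to 0.03 below it in the combined group. POLR1A held 7.84 to 8.43 FPKM with DiBP and 4.16 to 4.22 in the combined group. Summed over the list, levels were 2718 and 3239 FPKM in the controls, 3543 to 3652 with DBP, 4193 to 4279 with DiBP and 2985 to 3047 in the combined group. The summed exocrine pancreas list had a different order, 1760 to 2325 FPKM with DBP and 1281 to 1336 with DiBP, and the summed intestine list gave 2410 to 2615 with DiBP and 1629 to 1899 in the combined group. The summed liver list had the same order of exposures as the nucleolar list. It gave 543 to 567 FPKM with DBP, 613 to 619 with DiBP, 335 to 518 in the combined group and 332 and 491 in the controls. The part of these tissues in the nucleolar difference was not tested.

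**Figure D4:**
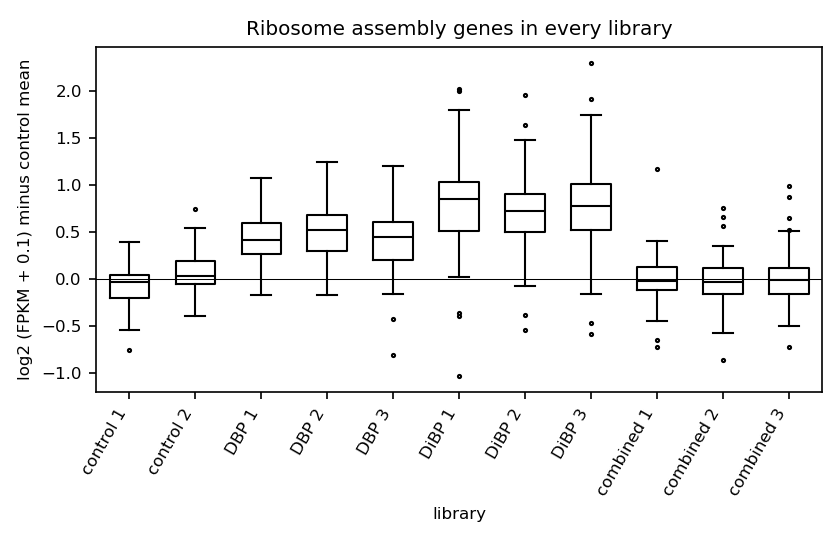
Levels of the 92 ribosome assembly genes in each library, as log2 of FPKM + 0.1 after scaling, minus the mean of the 2 control libraries. Boxes span the quartiles with the median as a line, whiskers have Tukey's length and dots are genes beyond them. The DBP medians of 0.41 to 0.52 lie between those of DiBP and of the combined group.

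Other genes of protein synthesis and central metabolism rose in smaller shares. Of all tested genes 8.98% rose, and 4.15% rose and held against each control. The list of aminoacyl tRNA synthetases, which charge transfer RNAs with amino acids, also holds AIMP1, AIMP2 and EEF1E1, for other proteins of the synthetase complex. Of its 23 tested genes 8 rose (34.8%) and 0 fell, but 2 held against each control (8.7%). These were AIMP2 (ENSDARG00000018903), a scaffold of the synthetase complex, which went from 36.2 and 41.0 FPKM to 71.4, 66.2 and 74.2 (0.97 ± 0.11, adjusted p = 6.12e-04), and the isoleucine enzyme IARS1 (ENSDARG00000007955, 0.69 ± 0.14). With values as deposited 4 of the 23 rose. Of 38 genes of the tricarboxylic acid cycle and its pyruvate supply 15 rose (39.5%) and 0 fell, with 7 holding (18.4%). The median was 0.35 (0.32 and 0.27 against control libraries 1 and 2). The malate dehydrogenase genes MDH1 (ENSDARG00000017772) and MDH2 (ENSDARG00000043371) went from 172 and 164 FPKM to 213, 217 and 215 (0.46 ± 0.08, adjusted p = 0.00559) and from 81.9 and 103 to 131, 131 and 137 (0.63 ± 0.10, adjusted p = 0.00329). The oxoglutarate carrier SLC25A11 (ENSDARG00000035741, 0.68 ± 0.10) and DLAT (ENSDARG00000015918, 0.43 ± 0.08), of pyruvate dehydrogenase, also held. With only the control and DBP libraries in the fit, the calls for MDH1, MDH2 and DLAT were lost (adjusted p = 0.069, 0.0572 and 0.0605). With values as deposited 9 rose and 2 fell.

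In the list of tyrosine, tryptophan, methionine and urea cycle metabolism 17 of 63 genes rose (27.0%) and 2 fell (3.17%), and 9 rises held against each control (14.3%). Over all tested genes 8.98% rose, 4.8% fell and 4.15% rose and held. The medians of the list were 0.25 with both controls, 0.40 against control library 1 and 0.24 against control library 2. Of the 9, 4 belong to the metabolism of sulfur amino acids. CBS (ENSDARG00000053500), which condenses homocysteine with serine, went from 3.52 and 4.22 FPKM to 6.22, 7.30 and 7.34 (0.93 ± 0.12, adjusted p = 0.00135), and its copy cbsb (ENSDARG00000010946, 0.52 ± 0.08), AHCY (ENSDARG00000005191, 0.89 ± 0.21) and BHMT (ENSDARG00000013430, 1.13 ± 0.23) rose as well. CBS was higher still with DiBP, at 10.4 to 10.7 FPKM. In the lysine pathway AASS (ENSDARG00000051816, 0.89 ± 0.13) and GCDH (ENSDARG00000037057, 0.75 ± 0.12) rose, and glutamate dehydrogenase glud1b (ENSDARG00000101074) went from 87.1 and 111 FPKM to 160, 160 and 161 (0.81 ± 0.11, adjusted p = 0.00202). The falls, of the histidine enzyme HAL (ENSDARG00000017444, -1.07 ± 0.27) and of the urea cycle enzyme ASL (ENSDARG00000033361, -0.85 ± 0.20), did not hold against each control.

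Amino acid stress genes gave a split picture. Of 40 genes of the ATF4 pathway, which cells turn on when amino acids run short or proteins misfold, 7 rose (17.5%) and 0 fell. Of these 5 held (12.5%), where 8.98% of all tested genes rose and 4.15% rose and held, but the median of the list was -0.02. CEBPB (ENSDARG00000042725), a transcription factor of that response and of myeloid cells, went from 68.3 and 93.5 FPKM to 171, 177 and 168 (1.2 ± 0.15, adjusted p = 7.66e-04). The others were nupr1b (ENSDARG00000094557, 1.28 ± 0.23), the cystathionine lyase CTH (ENSDARG00000074301, 0.65 ± 0.09), the amino acid transporter chain slc3a2a (ENSDARG00000036427, 0.56 ± 0.10) and DDIT4 (ENSDARG00000037618, 0.63 ± 0.12), an inhibitor of growth signalling.

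Genes of developmental signalling had the lowest median of the functional lists. Of 83 genes of Wnt, Notch and Hedgehog signalling 0 rose and 11 fell (13.3%, where 4.8% of all tested genes fell). Of these falls 5 held against each control (6.02% of the list, where 1.7% of all tested genes fell and held). The median was -0.22, and it was -0.27 and -0.18 against control libraries 1 and 2. The Notch ligand gene dlc (ENSDARG00000002336) went from 13.3 and 13.98 FPKM to 9.35, 8.57 and 10.23 (-0.44 ± 0.10, adjusted p = 0.0153), and RBPJ (ENSDARG00000003398), the DNA-binding partner of the Notch receptor, from 4.92 and 5.84 to 3.18, 3.35 and 3.22 (-0.61 ± 0.14). The call for dlc was lost without DBP library 1 or 2 (adjusted p = 0.0507 and 0.0594). The Wnt co-receptor gene LRP6 (ENSDARG00000100143) went from 4.46 and 4.49 FPKM to 2.47, 2.47 and 2.42 (-0.75 ± 0.14, adjusted p = 0.0065), with 4.87 to 5.72 in the combined group. DKK3 (ENSDARG00000103591, -0.76 ± 0.11), of a family of Wnt modulators, and the Hedgehog co-receptor GAS1 (ENSDARG00000067984, -0.50 ± 0.10) were the others. With values as deposited 0 rose and 18 fell. The median member differed by 0.02 from DiBP, with 2 members above and 2 below at an adjusted p under 0.05. From the combined group it differed by -0.14, with 1 above and 9 below.

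Of 87 splicing factor genes 0 rose and 5 fell, a share of 5.75% near the 4.8% of all genes. Of these falls 3 held against each control (3.45% of the list, where 1.7% of all tested genes fell and held). These were SRSF7 (ENSDARG00000101057), with 13.6 and 14.97 FPKM in the controls and 9.37, 8.61 and 7.90 with DBP (-0.63 ± 0.10, adjusted p = 0.00338), its relative srsf2b (ENSDARG00000103893, -0.65 ± 0.11) and SNRNP70 (ENSDARG00000077126, -0.40 ± 0.08) of the U1 particle. With values as deposited 15 of the 87 fell.

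**Figure D5:**
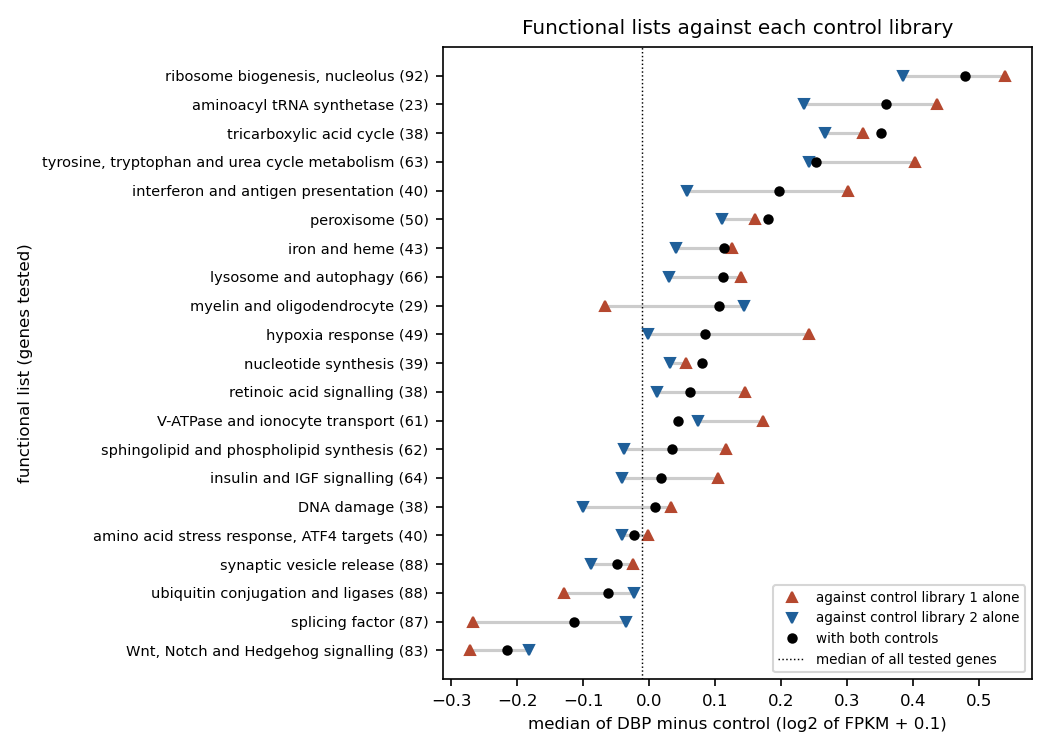
Median difference between DBP and control for each of the 21 functional lists, on the log2 scale of FPKM + 0.1, with both controls (black circles) and against control library 1 (red, upward triangles) or control library 2 (blue, downward triangles) alone. The number of tested genes is in parentheses and the dotted line is the median of all tested genes, -0.01. The ribosome biogenesis list lies highest at 0.48 and the Wnt, Notch and Hedgehog list lowest at -0.22.

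Smaller numbers of genes held in the lists of other pathways, whose shares stand beside the 8.98% of all tested genes that rose and the 4.8% that fell. Over all tested genes 4.15% rose and held against each control, and 1.7% fell and held. Of 38 retinoic acid genes 5 rose (13.2%) and 0 fell and 3 held, and with values as deposited 4 rose and 3 fell and 1 held. Among those that held were the carotene-cleaving gene bco1l (ENSDARG00000103659, 1.17 ± 0.25) and the retinol dehydrogenase DHRS9 (ENSDARG00000019260, 1.16 ± 0.23).

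Nucleotide synthesis genes split, with 9 of 39 higher (23.1%) and 3 lower (7.69%), and with values as deposited 6 higher and 4 lower. PPAT (ENSDARG00000004517), the first enzyme of purine synthesis, fell from 8.48 and 7.46 FPKM to 2.59, 3.06 and 2.51 (-1.42 ± 0.15, adjusted p = 3.74e-04). It held 3.30 to 3.91 FPKM in the combined group and 6.13 to 7.11 with DiBP. The nucleoside diphosphate kinase nme2a (ENSDARG00000043820) went from 10.1 and 10.03 FPKM to 21.5, 19.4 and 18.1 (1.06 ± 0.20, adjusted p = 0.00691), and adenosine deaminase ADA (ENSDARG00000003113, 0.68 ± 0.13) and CTPS1 (ENSDARG00000030700, 0.41 ± 0.09) rose. The call for CTPS1 was lost without DBP library 2 (adjusted p = 0.0587).

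In the list of DNA damage genes 4 of 38 rose (10.5%) and 2 fell (5.26%), shares near those of all tested genes, and with values as deposited 2 rose and 2 fell. GADD45A (ENSDARG00000104571, 0.61 ± 0.08) and the cell death gene pmaip1 (ENSDARG00000089307, 0.98 ± 0.19) rose. BTG2 (ENSDARG00000020298) rose by 0.35 ± 0.08, a call that was lost without any 1 of the DBP libraries (adjusted p = 0.0645, 0.0564 and 0.067) and with values as deposited (adjusted p = 0.0903).

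Insulin and IGF signalling had 8 of 64 genes higher (12.5%) and 4 lower (6.25%). The kinase gene sgk1 (ENSDARG00000025522) went from 24.8 and 25.8 FPKM to 36.9, 38.7 and 39.3 (0.70 ± 0.09, adjusted p = 0.0014). FBXO32 (ENSDARG00000040277), a ubiquitin ligase of muscle wasting, had 13.9 and 35.5 FPKM in the controls and 59.98, 59.7 and 67.9 with DBP (1.58 ± 0.28), and PDK2 (ENSDARG00000059054, 1.5 ± 0.32), a brake on pyruvate use, had 40.6 and 113 in the controls and 169 to 189 with DBP. Their differences were 2.26 and 2.24 against control library 1 and 0.91 and 0.76 against control library 2, and control library 1 had the lowest summed level of muscle genes.

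Ubiquitin genes had 6 of 88 higher (6.82%) and 5 lower (5.68%), near the shares of all tested genes, and 4 higher and 10 lower with values as deposited. The polyubiquitin genes UBB (ENSDARG00000002369) and ubb (ENSDARG00000093313) went from 69.7 and 66.3 FPKM to 110, 114 and 113 (0.82 ± 0.11, adjusted p = 0.0012) and from 67.5 and 72.05 to 110, 107 and 107 (0.72 ± 0.10, adjusted p = 0.00205). DiBP libraries held 56.6 to 73.4 FPKM for this pair. They are near-identical copies, so the split between them is uncertain. KLHL24 (ENSDARG00000008275, 0.71 ± 0.12) and ube3a (ENSDARG00000055737, 0.39 ± 0.09) also rose.

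Ion transport genes, of the V-ATPase proton pump and of ionocytes (8 of 61 higher, 13.1%, and 0 lower), had 4 that held. The sodium pump genes atp1a1a.4 (ENSDARG00000001870) and atp1a1a.2 (ENSDARG00000007739) went from 16.8 and 31.1 FPKM to 47.5, 49.9 and 52.0 (1.21 ± 0.19, adjusted p = 0.00291) and from 2.28 and 3.07 to 4.22, 4.08 and 4.35 (0.75 ± 0.13). Their beta chain ATP1B1 (ENSDARG00000013144, 0.67 ± 0.11) and the chloride channel clcn2c (ENSDARG00000060439, 0.95 ± 0.17) rose too. The calls for all 4 were lost with only the control and DBP libraries in the fit (adjusted p = 0.056 to 0.0719). The summed skin list was 1625 and 3676 FPKM in the controls and 5529 to 5996 with DBP, and its part in these rises was not tested.

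Peroxisome genes had 5 of 50 higher (10%) and 1 lower, and lipid synthesis genes 6 of 62 higher (9.68%) and 1 lower, both near the share of all tested genes that rose. The peroxisome genes that held were IDH1 (ENSDARG00000025375), which makes NADPH, with 7.03 and 10.4 FPKM in the controls and 16.2, 15.8 and 16.9 with DBP (1.01 ± 0.14, adjusted p = 0.00184), the sterol carrier scp2a (ENSDARG00000012194, 0.84 ± 0.13) and EHHADH (ENSDARG00000070029, 0.85 ± 0.15) of peroxisomal beta oxidation. Those of lipid synthesis were the sphingosine phosphate lyase SGPL1 (ENSDARG00000061375, 0.85 ± 0.10), the cardiolipin synthase CRLS1 (ENSDARG00000038000, 0.49 ± 0.09) and KDSR (ENSDARG00000012021, 0.81 ± 0.16). Interferon and antigen presentation genes (6 of 40 higher, 15%, and 2 lower, 5%) included the nuclease isg20 (ENSDARG00000079783, 0.66 ± 0.12) and ifi30b (ENSDARG00000075629, 0.63 ± 0.12). The gene mhc1uba (ENSDARG00000075963), for an antigen-presenting class I molecule, was listed at 0 in every DiBP library. It had 0.08 to 0.14 FPKM in the control and combined libraries and 0.392 to 0.527 with DBP, which is 3 reads in each control and 14 to 18 in the DBP libraries. It passed the read filter only through the DBP libraries and so had to differ, and no p-value is given for it. A count that includes it has the same limit.

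In further lists at most 2 differences held against each control. Over all tested genes 8.98% rose, 4.8% fell and 4.15% rose and held. Of 88 genes of synaptic vesicle release 1 rose (1.14%) and 1 fell (1.14%). Of 29 myelin genes 0 rose and 2 fell (6.9%) with none holding. Of 66 genes of lysosomes and autophagy 5 rose (7.58%) and 1 held (1.52%). Hypoxia genes (3 of 49 higher, 2 lower) and iron and heme genes (6 of 43 higher, 3 lower) had 1 and 2 that held. Within the iron list HJV (ENSDARG00000030494), of iron sensing and of muscle, went from 0.971 and 1.404 FPKM to 3.67, 3.36 and 3.59 (1.61 ± 0.19, adjusted p = 7.45e-04), and blvrb (ENSDARG00000096829), a biliverdin reductase, rose by 1.12 ± 0.17. The medians of the lists for ion transport, nucleotide synthesis, hypoxia, DNA damage, insulin, retinoic acid and lipid synthesis changed sign with values as deposited, and no direction is given for them.

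Some of the largest differences from control library 1 were smaller against control library 2, in the same direction, and did not pass the test there. The 6 genes that lost their call without control library 1 and had the largest differences against it were CDNF, pvalb2, CRYBA4, CHRNE, crybb1l1 and cdx1a. CDNF (ENSDARG00000075501), a secreted factor that protects neurons, had 0.284 FPKM in control library 1, 2.60 in control library 2 and 4.498, 5.14 and 5.34 with DBP, so that its difference was 3.81 against the first and 1.01 (adjusted p = 0.0828) against the second. The muscle parvalbumin pvalb2 (ENSDARG00000002768) had 920 and 7908 FPKM in the controls and 11332 to 11942 with DBP, a difference of 3.76 against control library 1 and 0.66 against control library 2. The lens crystallin gene CRYBA4 (ENSDARG00000024548) had 2219 and 285 FPKM in the controls and 160 to 179 with DBP, with differences of -3.60 and -0.64. CHRNE (ENSDARG00000034307), of the muscle acetylcholine receptor, and the gut transcription factor gene cdx1a (ENSDARG00000114554) were likewise lowest in control library 1, with differences of 3.45 and 0.93 for CHRNE and of 3.14 and 1.21 for cdx1a against control libraries 1 and 2. For crybb1l1 (ENSDARG00000007576), another crystallin that was highest in control library 1, they were -3.16 and -0.60.

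Over the 83 genes named as holding against each control, 66 also differed from the combined group, all in the same direction as from the controls. From DiBP 29 differed, 21 in the same direction and 8 in the other. Over all tested genes 19.0% passed against the combined group and 11.4% against DiBP. The named genes were chosen by their DBP values, and these contrasts use the same DBP libraries, so a shared direction was partly built in. The 8 in the other direction were higher with DiBP than with DBP, namely NOC2L, CBS, GCDH, CTH, GADD45A, isg20, atp1a1a.2 and ube3a. The 21 include ATF2, PDXK and the ubiquitin genes on the higher side, and SLC27A1, PINK1, PPFIBP1, LIX1 and PPAT on the lower side. Both the 66 and the 21 also count zmp:0000000737, whose difference was fixed by the read filter.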

How the data were processed

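RNA from whole larvae was sequenced as paired reads of 150 bp from libraries made with 3 µg of RNA, per the labels' protocols. The deposited files hold FPKM values made by the authors, and per the submitters' processing notes reads were handled with HISAT2 2.1.0, HTSeq 0.6.0 and GRCz10. The sources used here state no strand setting or annotation release, so reads of genes that overlap or lie antisense to each other cannot be assigned, and near-identical copies are uncertain. Symbols came from a gene name table that matched 25392 of 27625 Ensembl IDs, and many have the human form or are shared by paralogues.

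Whole read numbers were recovered from the FPKM values (100% of values above 0 came out whole within 0.001 reads beside rounding). They served for a filter (the share that 10 reads make up, in at least 2 libraries, and 15 in all, which left out 8160 genes), for TMM scaling factors (0.935 to 1.101) and for 1 alternative test, voom, which called 2906 genes. The main test was limma 3.58.1 (R 4.3.3) on log2(FPKM / factor + 0.1), with a variance trend, on all 11 libraries, with a mean for each group and 3.85 prior and 7 residual degrees of freedom, adjusted over all tested genes at 0.05. It was repeated without each control library, and a lone control is then assumed to vary like the other groups. The control libraries differed more from each other than DBP libraries did, so this may understate the spread of a control. The steps were also run on simulated data. Recovery returned the exact reads for 99.98% of values above 0. The fit with both controls called 2.99% of simulated 1.5-fold changes, 46.3% of 2-fold and 100% of 4-fold ones, and fewer of each size held against each control. A gene that did not pass or hold may therefore still differ. All simulated libraries had the same spread, so a control that stands apart was not simulated. Counting depth was 13396589 to 15381114 reads per library.

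Named genes follow a fixed rule. The 14 largest rises and 14 falls were ranked by the smaller difference from a single control. They had to hold against each control, with groups that do not overlap, a mean of 20 reads and a symbol that is no clone name, outside the 9 tissue and clock lists. Up to 4 members were then named from each of the 15 functional lists with 3 or more members that held without overlap of the groups. The conditions on reads and on tissue lists were not applied to these list members. Last came 6 genes that lost their call without control library 1, from which tissue list genes were not left out. Further members of lists are named to describe them and were picked after their values were seen. Some genes that meet the rule are not reported here. The members and lists were chosen with earlier results of these data known. Of 1182 functional names 1043 were found. Alternatives were RLE scaling, values as deposited, other filters, pseudocounts of 0.01 and 1, a 2-fold threshold, voom, the replicate number as a block, only the 5 libraries, and single libraries left out. Python 3.11.15, NumPy 2.4.6, pandas 2.3.3 and Matplotlib 3.10.9 were used. No genome or sequence table was used here.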

Additional observations from a re-analysis of the deposited data

How the results depend on the processing

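The counts of calls depended on the size required, on the libraries in the fit and on single libraries. Requiring 2-fold differences left 1046 calls, 579 that held against each control and 35 in functional lists, and 13 and 26 named genes then differed from DiBP and from the combined group. With only the 5 control and DBP libraries in the fit there were 679 calls, 658 that held and 48 in functional lists, and the other exposures could not be compared. With the replicate number as a block 678 held, and 2021 were called; same-numbered libraries correlated by -0.034 to 0.136 (0.136 and 0.005 for the control and DBP pairs), so the numbers are not taken as pairs, and all 83 named genes kept their call in the blocked fit. Without combined library 3 in the spread 2223 held. Leaving out single control or DBP libraries gave 1360 to 5748 calls, 110 to 424 in functional lists, 725 to 798 that held (DBP libraries only), and 18 to 37 and 50 to 73 named genes that differed from DiBP and from the combined group. The cause of these shifts was not tested. RLE scaling, both pseudocounts, both filters, voom and values as deposited left these counts within 1.5 times, and no named difference changed sign. A kept call of a named gene here means passing in the fit with all libraries of that alternative. Whether single genes still held against each control was not counted. Of the 83 named genes, of which 62 were tested with a mean CPM of 5 or more, 80 kept their call in every alternative in which they were tested but the 2-fold threshold and the fit of 5 libraries (42 and 55 kept it there), BTG2, dlc and CTPS1 being the exceptions. The fits without control library 1 or 2 had served to choose these genes, so their calls there were fixed in advance.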

Other observations

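Several genes known from neural precursors were picked after their values were seen, so what follows is a description of them with no test of a group. Of 17 tested genes that carry 12 such symbols 0 rose and 13 fell, and 12 falls held against each control, where 4.8% of all tested genes fell and 1.7% held. FOXN4 (ENSDARG00000010591), of retinal and spinal precursors, went from 5.87 and 8.05 FPKM in the controls to 2.86, 2.498 and 3.17 with DBP (-1.16 ± 0.19, adjusted p = 0.00362), with 2.05 to 2.43 with DiBP and 5.07 to 6.503 in the combined group. Both copies of INSM1 (-0.83 ± 0.11 and -0.81 ± 0.11), which marks new neurons and endocrine cells, fell, as did the Notch ligand DLL1 (ENSDARG00000010791, -0.80 ± 0.13), the Notch target her15.2 (ENSDARG00000054560, -0.69 ± 0.12) and pou3f2a (ENSDARG00000070220, -0.98 ± 0.16). From DiBP each INSM1 copy differed by 0.08, her15.2 by 0.02 and pou3f2a by -0.04, but DLL1 by -0.42 (adjusted p = 0.0401). POU3F2 (-0.55 ± 0.17, adjusted p = 0.0504) and a single copy each of DLX2 (-0.48 ± 0.26), SOX4 (-0.10 ± 0.14) and STMN1 (-0.19 ± 0.17) did not pass. For SOX4 and STMN1 this was the more abundant copy. Control levels were 142 and 113 FPKM for SOX4 and 1130 and 792 for STMN1, against 34.9 and 29.8 and 6.86 and 7.42 for the copies that fell. Against control library 2 alone these abundant copies differed by 0.07 and 0.06. For DLX2 the copy that did not pass was the less abundant one.

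Of 7 nucleolar genes outside the list, also picked after their values were seen, 6 rose and 1 fell. gpatch4 (ENSDARG00000091931) went from 0.932 and 1.39 FPKM to 3.55, 3.55 and 4.37 (1.75 ± 0.20), and LYAR (ENSDARG00000098507, 0.94 ± 0.10) and mybbp1a (ENSDARG00000078214, 0.97 ± 0.12) rose, but urb1 (ENSDARG00000060308), of large subunit assembly, fell from 4.96 and 3.63 FPKM to 1.48, 1.45 and 1.62 (-1.34 ± 0.16, adjusted p = 6.88e-04). AMPD1 (ENSDARG00000033832), a muscle enzyme that removes the amino group of AMP, had 29.8 and 146 FPKM in the controls and 219 to 256 with DBP (1.94 ± 0.46), with differences of 3.08 and 0.80 against control libraries 1 and 2, in which muscle genes summed to 14806 and 50663 FPKM. The uncoupling protein gene UCP1 (ENSDARG00000023151) went from 56.7 and 82.5 FPKM to 177, 178 and 182 (1.48 ± 0.14, adjusted p = 2.61e-04) and was also higher than with DiBP (112 to 114). HSD11B2 (ENSDARG00000001975), which inactivates cortisol, went from 5.14 and 7.02 FPKM to 15.5, 16.4 and 15.6 (1.48 ± 0.19, adjusted p = 0.00124). The inflammasome genes caspa (ENSDARG00000008165, 1.56 ± 0.23) and pycard (ENSDARG00000040076, 1.3 ± 0.22) rose against each control. Neither passed the test against DiBP (adjusted p = 0.542 and 0.233), and pycard did not pass against the combined group (adjusted p = 0.41). NOD2 (ENSDARG00000010756), picked alongside them, fell against each control, from 1.69 and 2.37 FPKM to 0.813, 0.962 and 0.889. AMPD1 and the genes named after it were also picked after their values were seen, so they are only described.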
